A study of Mus musculus with 6 samples.

Results

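The 53 genes described here encode the machinery that copies DNA in S phase. They were taken as a list of mouse gene symbols and mapped to the Ensembl gene IDs of the count tables. All 53 were found among the 54109 listed IDs, and all 53 passed the filter on low counts that left 15427 genes for testing. They fall into 12 groups by role: the origin recognition complex, licensing and firing factors, the MCM helicase, GINS, polymerase alpha with primase, polymerases delta and epsilon, the RFC clamp loader, the sliding clamp with lagging-strand maturation, RPA, nucleotide supply, chromatin assembly at the fork, and regulators of entry into S phase. The messenger RNA came from 6 cultures of Msc80, an established Schwann cell line from mouse. Schwann cells are the glia that ensheathe peripheral axons. In 3 control cultures the Sox10 gene was wild type. In the other 3 (Sox10ko) it had been edited with CRISPR/Cas9 so that Sox10, a transcription factor of neural crest and glia, would not be made. Both groups were kept in DMEM with 10% FCS and were split at intervals of 4 days. The labels speak of a cell clone for Sox10ko and do not say whether the 3 cultures came from 1 clone or several, so that loss of Sox10 and a difference between clones cannot be told apart. The labels call the cultures biological replicates without saying how they were separated, and p-values measure only the spread between these cultures.

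Replication starts where the origin recognition complex sits on DNA. In G1 phase Cdc6 and Cdt1 load the ring-shaped MCM helicase there, which licenses the origin, and geminin blocks further loading once S phase has begun. The kinase Cdc7 together with Cdc45, GINS and Mcm10 turns the loaded ring into an active helicase. Primase and polymerase alpha then lay down primers, RFC loads the PCNA clamp, polymerases epsilon and delta extend the strands, and RPA covers the exposed single strands. Many of these genes are transcribed in a wave at the G1/S boundary under E2F transcription factors, so in a mixed culture their RNA is commonly read as a marker of dividing cells.

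The libraries held 32328618 to 41834431 counted reads. Levels are in CPM, read counts relative to a library total adjusted by TMM. Differences are log2 ratios, Sox10ko over control, with their standard error (SE). Sox10 RNA, the check of the labels, stood at 606, 627 and 617 CPM in the controls (values are listed in the order of replicates 1, 2 and 3 throughout). In Sox10ko it stood at 82.3, 67.5 and 116 CPM. The summed level of 11 Schwann cell and neural crest markers ran from 4896 to 5501 CPM in control, where all 11 had at least 1 CPM. In Sox10ko the sum ran from 169 to 207 CPM, and 10 of the 11 had at least 1 CPM. Ngfr (2965, 2693 and 3237 CPM) made up most of the control sum. Mbp alone did not pass, with means of 2.81 CPM in control and 2.18 CPM in Sox10ko (edgeR adjusted p = 0.669). A list of 6 smooth muscle markers went from 1.36 to 1.61 CPM in control to 127 to 723 CPM in Sox10ko. None of the 6 had a mean of 1 CPM in control and 4 had it in Sox10ko, where Acta2 (107, 644 and 321 CPM) made up most of the sum. The sum of 8 fibroblast markers was 1370 to 1819 CPM in control and 954 to 2757 CPM in Sox10ko, with 4 of 8 at 1 CPM or more in both. This sum hides shifts in opposite directions. Col1a1 was 6.12-fold and Col1a2 8.09-fold higher in Sox10ko (edgeR adjusted p = 0.00577 and 0.00284). Postn was 35.3-fold lower (edgeR adjusted p = 0.000281). Col6a3, with means of 1123 CPM in control and 871 CPM in Sox10ko, did not pass. Endothelial markers summed to at most 2.39 CPM, leukocyte markers to at most 13.2 CPM and epithelial markers to at most 5.13 CPM in any library. Itgam and Cd3e had no reads in any of the 6, Kdr and Krt18 none in control, and Emcn and Epcam none in Sox10ko. These marker lists moved with the same comparison as the replication genes, and their part in the results below was not tested.

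Promoter sequence is shown first, since a run of letters bound by E2F factors is the textbook feature of this gene class and was not used to choose the genes. RefSeq windows from 250 bases before to 50 bases after a transcription start (GRCm38.p6) were on hand for 44 of the 53 genes. They were searched on both strands for the E2F-type letters TTTCCCGC, TTTGGCGC, TTTCGCGC and TTTGCCGC. The letters occurred in 16 of the 44 genes (36.4%), in 29.4% of 34 other replication genes, in 3.4% of 29 mitosis genes and in 4.6% of the 10818 tested genes with a window. Among all 27025 genes with a window the share was 2.6%. The share was about the same in replication genes that passed as lower in Sox10ko (9 of 25, 36.0%) and in those that did not pass (7 of 19, 36.8%). The stretches below are shown so that both kinds can be set beside each other. The first 4 belong to the members with E2F-type letters that had the largest falls, and the last 4 to those with the smallest differences. Each is written 5′ to 3′ in the direction of the searched letters, which are in capitals.
Pole2: tgttcgcgaTTTGGCGCcaccgccga
Mcm7: gtgacgacgTTTCGCGCcaatttcgg
Pold1: gctTTTCCCGCcacaagata
Pola1: gggagtgcaTTTGGCGCcctgtgatg
Orc3: atgcctcccTTTCCCGCacgccccgc
Orc1: gagaaaactTTTCGCGCcactaaccg
Rfc3: cagtagagtTTTCCCGCgagcgcgaa
Mcm3: ttcccaagtTTTCCCGCcacggaagt

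These stretches lie at chr12:69228164-69228189 (plus strand as printed) for Pole2, chr5:138171851-138171876 (minus) for Mcm7, chr7:44548766-44548785 (plus) for Pold1 and chrX:93632277-93632302 (plus) for Pola1. Those of the genes that did not pass the test lie at chr4:34614967-34614992 (minus) for Orc3, chr4:108579418-108579443 (minus) for Orc1, chr5:151651192-151651217 (plus) for Rfc3 and chr1:20820277-20820302 (plus) for Mcm3. The Pola1 letters end 131 bases before the RefSeq start, outside any exon of GENCODE M21. Those of Orc3 and Orc1 end 34 and 20 bases before it. The letters of Pole2, Mcm7, Pold1, Rfc3 and Mcm3 begin 1 to 40 bases after it. All but the Pola1 letters overlap an annotated exon. A match describes the letters and is not a measured binding site, and genes without a match may hold other versions of the site.

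The 250 bases before the Pola1 start, at chrX:93632156-93632405 and written along the minus strand of the gene, show the arrangement in a promoter free of annotated exons. The E2F-type letters (read here on the opposite strand) and a CCAAT box, the letters CCAAT, also read on the opposite strand and 33 to 37 bases before the start, are in capitals.
Pola1 promoter: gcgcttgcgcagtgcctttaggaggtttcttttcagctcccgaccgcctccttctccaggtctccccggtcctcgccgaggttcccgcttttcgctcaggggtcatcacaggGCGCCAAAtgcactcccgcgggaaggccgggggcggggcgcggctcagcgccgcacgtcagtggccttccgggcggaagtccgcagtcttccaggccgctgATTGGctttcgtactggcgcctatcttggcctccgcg

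The other promoter letters were nearer to their share in all tested genes. CCAAT was present in 25 of the 44 replication genes (56.8%), in 43.3% of all tested genes and in 72.4% of the mitosis genes. The CHR element of late cell-cycle genes, searched as TTTGAA and TTCGAA, was present in 8 of 44 (18.2%), near the 16.6% of all tested genes, and in 75.9% of the mitosis genes. In the 250 bases before the start alone, E2F-type letters were present in 10 of 44 replication genes (22.7%) and in 3.8% of all tested genes. The CHR letters were present there in 18.2% of the replication genes, 37.9% of the mitosis genes and 14.8% of all tested genes.

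In the Sox10ko cultures, RNA of the replication machinery was lower across most of its parts, by a moderate amount. Of the 53 genes, 30 were lower in Sox10ko at an edgeR quasi-likelihood adjusted p under 0.05, 0 were higher and 23 did not pass. Over all 15427 tested genes, 14.7% passed as lower and 17.3% as higher. The median log2 fold change of the 53 was -0.48, or 1.39-fold lower, with a middle range (first to last quartile) of -0.65 to -0.35, while the median of all tested genes was 0.02. Its sign was negative for 50 of the 53 genes, compared with 48.5% of all tested genes. All 3 Sox10ko cultures lay below all 3 control cultures for 39 of the 53, which held for 23.8% of tested genes (49.3% were without overlap in either direction), and no member lay wholly above. At an unadjusted edgeR p under 0.05, 38 were lower and 0 higher, beside 6684 of the 15427 tested genes in either direction. No member passed as higher under DESeq2, limma-voom or any other alternative run. In bulk RNA, fewer cells in S phase and less of these RNAs per cell cannot be told apart.

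**Figure D1:**
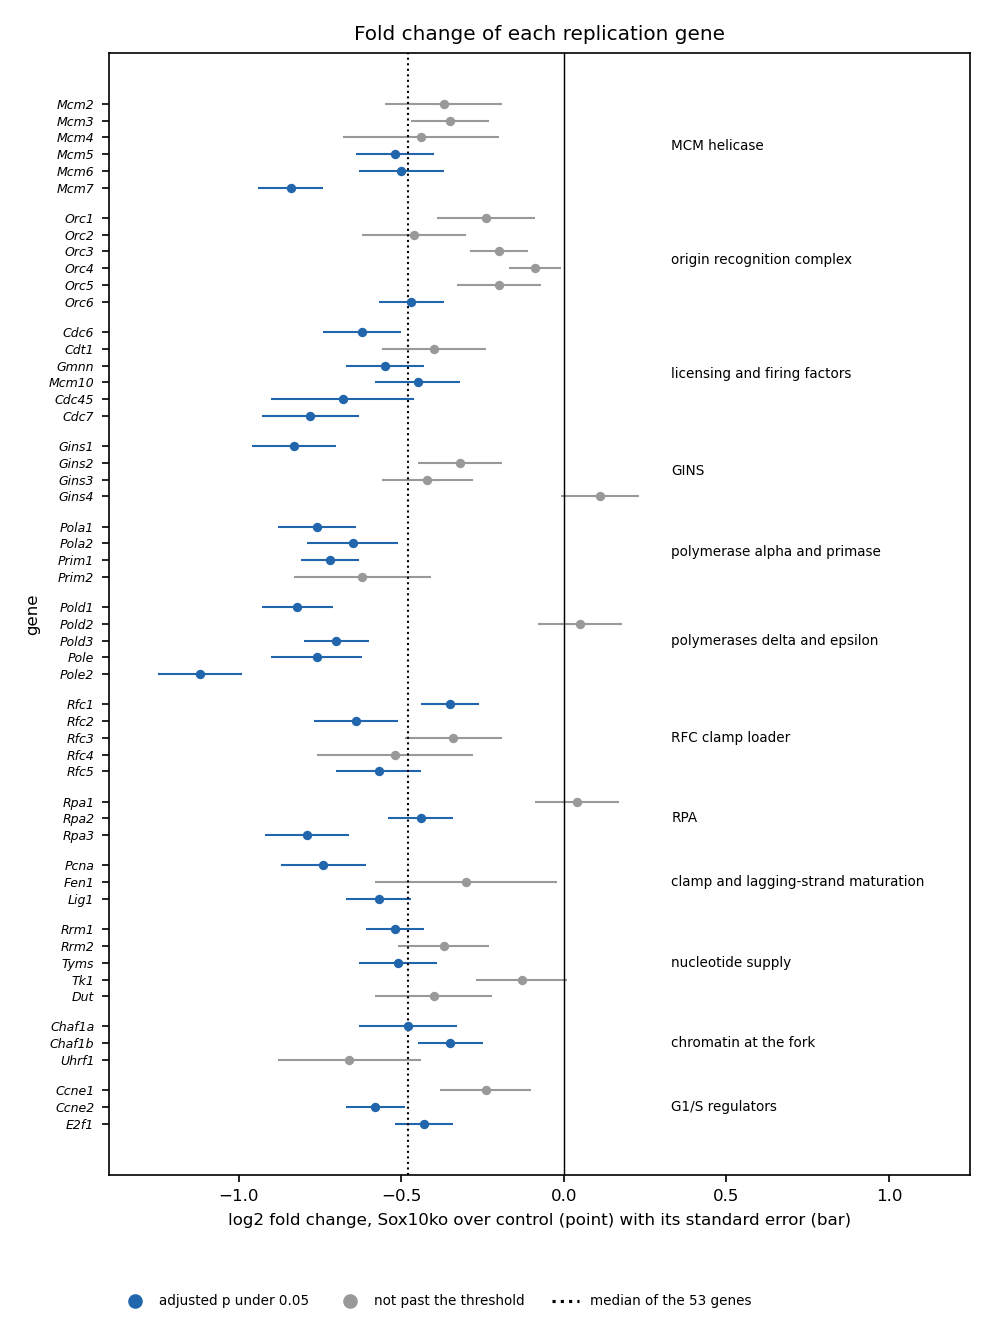
Log2 fold change of Sox10ko over control (horizontal axis) for each of the 53 replication genes (vertical axis, by role), with SE as bars and the median of -0.48 as a dotted line. 30 genes are marked as past the edgeR threshold, all to the left of 0, and 3 points (Gins4, Pold2 and Rpa1) lie to its right.

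The difference was narrow in size. The log2 fold changes had an SD of 0.24 over the 53 genes, beside a median SE of 0.13 for a single gene, and 46 of the 53 lay between -0.9 and -0.2. Over the 10236 genes that averaged 5 CPM or more, the SD was 1.16, with values from -9.78 to 13.04. Their middle range was -0.30 to 0.27. A narrow spread was not particular to the 53. The 35 mitosis genes had an SD of 0.26 and a middle range of -0.66 to -0.37, and the 44 other replication genes an SD of 0.34. A fall of at least 1.5-fold that also passed the test was seen in 15 members (9.81% of all tested genes), and 1 of at least 2-fold in Pole2 alone (6.09% of tested genes). Read together, the 53 genes took 0.6824%, 0.6270% and 0.6768% of all counts in control replicates 1, 2 and 3. In Sox10ko they took 0.4514%, 0.4999% and 0.5400%, without overlap.

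**Figure D2:**
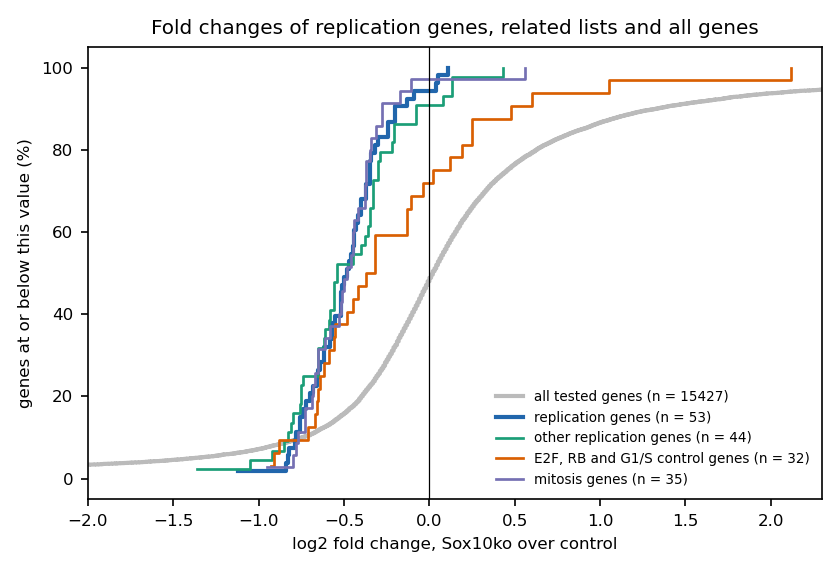
Cumulative share of genes (vertical axis, %) at or below each log2 fold change of Sox10ko over control (horizontal axis), for the 53 replication genes, the lists of other replication, E2F, RB and G1/S control and mitosis genes, and all 15427 tested genes. The curve of the replication genes is steep between -0.9 and -0.2, whereas that of all tested genes is centred near 0.02 and spreads further to both sides.

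The origin recognition complex, which marks origins, had the smallest median difference of the 12 groups. Its 6 members had a median log2 fold change of -0.22. Only Orc6 passed (16.7%), near the 14.7% of all tested genes that passed as lower. Sox10ko lay wholly below control for 4 of the 6, beside 23.8% of tested genes. Orc6 was read at 54.7, 46.3 and 52.7 CPM in control and at 37.4, 36.2 and 37.1 CPM in Sox10ko. The groups did not overlap, and Orc6 fell by 0.47 ± 0.10 (SE) on the log2 scale (edgeR adjusted p = 0.0106). Orc4 had the smallest difference, with 61.5, 60.6 and 65.1 CPM in control and 56.7, 59.5 and 59.1 CPM in Sox10ko. Although its groups did not overlap either, the log2 fold change of Orc4 was -0.09 ± 0.08 (edgeR adjusted p = 0.430). Orc1, the subunit whose level is known to follow the cell cycle in mammalian cells, was low throughout, at 11.8, 12.1 and 10.6 CPM against 10.8, 8.92 and 9.49 CPM, with overlap (log2 fold change -0.24, edgeR adjusted p = 0.260). Orc3 and Orc5 both had a value of -0.20 and did not pass. Orc2 had the second largest difference of the complex, -0.46 (edgeR adjusted p = 0.0620), and passed without Sox10ko replicate 2 (edgeR adjusted p = 0.0250). Of its 3857 exonic bases, 1150 overlap Nif3l1 on the opposite strand.

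Licensing and firing factors were lower as a group. All 6 had values below 0, 5 passed as lower, and the median log2 fold change was -0.58. Cdc7, the kinase that activates the loaded helicase, had the largest fall of the group. Its levels were 46.4, 44.3 and 48.9 CPM in control and 27.8, 31.7 and 21.7 CPM in Sox10ko. Every Sox10ko culture lay below every control, and Cdc7 fell by 0.78 ± 0.15 on the log2 scale, or 1.72-fold (edgeR adjusted p = 0.00750). Cdc6, which opens the way for the helicase at the origin, fell from 54.6, 55.7 and 56.0 CPM to 30.9, 35.9 and 41.6 CPM (1.53-fold, edgeR adjusted p = 0.00903). Gmnn, which encodes the licensing inhibitor geminin, fell from 36.7, 35.2 and 34.5 CPM to 20.8, 24.6 and 27.4 CPM (1.46-fold, edgeR adjusted p = 0.0149). A loading factor and the inhibitor of loading were both lower.

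Cdt1, the partner that geminin blocks, did not pass. Its levels were 62.6, 69.9 and 63.1 CPM in control and 49.8, 38.8 and 59.9 CPM in Sox10ko, with a log2 fold change of -0.40 ± 0.16 (edgeR adjusted p = 0.0985). The groups did not overlap, but Sox10ko replicate 3 came close to the controls, and without that culture Cdt1 passed (edgeR adjusted p = 0.0274). The ratio of Gmnn to Cdt1 reads within a library was 0.586, 0.503 and 0.546 in control and 0.418, 0.634 and 0.457 in Sox10ko. This ratio of RNA reads overlapped between groups. Mcm10, which helps the helicase start, fell by 0.45 on the log2 scale (edgeR adjusted p = 0.0329) and Cdc45, a subunit of the active helicase, by 0.68 (edgeR adjusted p = 0.0494). Both calls were near the threshold. Without control replicate 1, 2 or 3 or Sox10ko replicate 1 or 2, taken one at a time, the edgeR adjusted p ran from 0.0677 to 0.0850 for Mcm10 and from 0.0751 to 0.125 for Cdc45.

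The MCM helicase, the ring that unwinds DNA, was lower in all 6 subunits by value and in 3 by test, with a median log2 fold change of -0.47. Mcm7 stood out with the largest fall: 332, 311 and 336 CPM in control against 164, 183 and 199 CPM in Sox10ko. No culture overlapped between the groups, and the fall of 0.84 ± 0.10 on the log2 scale corresponds to 1.79-fold (edgeR adjusted p = 0.00128). The gene lies at chr5:138164583-138172422 on the minus strand of GRCm38. Mcm5 (133, 117 and 136 CPM against 85.4, 79.8 and 103 CPM) and Mcm6 (378, 309.7 and 398 CPM against 228, 275 and 264 CPM) fell 1.44-fold and 1.42-fold. Their calls depended on single cultures. With control replicate 1 or 3 left out, Mcm5 had an edgeR adjusted p of 0.0516 or 0.0646. Leaving out control replicate 1 or 3 or Sox10ko replicate 1 gave Mcm6 an edgeR adjusted p of 0.0697, 0.0843 or 0.0532.

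The other MCM subunits missed the threshold in different ways. Mcm3 had the smallest difference of the ring, at 246, 202 and 257 CPM in control and 169, 191 and 193 CPM in Sox10ko. Its groups did not overlap, and the log2 fold change was -0.35 ± 0.12 (edgeR adjusted p = 0.0630, and 0.0300 without control replicate 2). Mcm2 was read at 342, 333 and 354 CPM in control and at 198, 265 and 335 CPM in Sox10ko (edgeR adjusted p = 0.166). Mcm4 was read at 284, 279 and 298 CPM in control and at 149, 183 and 302 CPM in Sox10ko (edgeR adjusted p = 0.209). For both, Sox10ko replicate 1 was low and replicate 3 lay within or above the control range. Without Sox10ko replicate 3, both passed (edgeR adjusted p = 0.0293 for Mcm2 and 0.00579 for Mcm4).

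GINS, a small complex of 4 proteins that joins the helicase at firing, was split. Gins1 was read at 28.8, 29.8 and 33.1 CPM in control and at 17.2, 14.9 and 19.4 CPM in Sox10ko. The groups were well apart, and Gins1 fell by 0.83 ± 0.13 on the log2 scale (1.78-fold, edgeR adjusted p = 0.00378). Gins4 instead had 27.4, 25.4 and 27.0 CPM in control and 28.7, 25.6 and 32.1 CPM in Sox10ko. Its groups overlapped, and its log2 fold change of 0.11 ± 0.12 (edgeR adjusted p = 0.498) was the highest of the 53. Gins1 lies at chr2:150905400-150931280 (plus strand) and Gins4 at chr8:23226616-23237659 (minus strand). Gins3 (log2 fold change -0.42, edgeR adjusted p = 0.0507) lay just outside the threshold and passed without Sox10ko replicate 1 (edgeR adjusted p = 0.0415). Gins2 had -0.32 (edgeR adjusted p = 0.0968), and 2758 of its 4097 exonic bases overlap Gse1 on the opposite strand. In all, 16 of the 53 genes share exonic bases with a gene on the opposite strand. The strand setting of the counting is not given in the sources used here, so reads of such pairs may not be separated.

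Polymerase alpha and primase, which start each new strand, were the most even group. The log2 fold changes of the 4 subunits ran only from -0.76 to -0.62, with an SD of 0.07. That SD was below the SE of each single subunit, which ran from 0.09 for Prim1 to 0.21 for Prim2. Pola1, the catalytic subunit, had 163, 156 and 159.5 CPM in control and 81.0, 93.4 and 108 CPM in Sox10ko. These groups did not overlap, and Pola1 fell by 0.76 ± 0.12 on the log2 scale (1.70-fold, edgeR adjusted p = 0.00320). Pola2 fell 1.56-fold (edgeR adjusted p = 0.0131) and Prim1, the catalytic primase subunit, fell from 131, 121 and 130.5 CPM to 74.2, 84.0 and 74.1 CPM (1.65-fold, edgeR adjusted p = 0.00158). Prim2 was similar in size but more variable, at 72.2, 48.4 and 68.8 CPM in control and 32.5, 51.4 and 39.6 CPM in Sox10ko. Its groups overlapped through control replicate 2 and Sox10ko replicate 2, and its log2 fold change of -0.62 ± 0.21 did not pass (edgeR adjusted p = 0.0608). It passed without either of those cultures (edgeR adjusted p = 0.0343 and 0.0257).

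The replicative polymerases held both the largest fall of the 53 genes and one of the 3 that had no lower value. Pole2, the accessory subunit of the leading-strand polymerase epsilon, was read at 34.9, 35.7 and 41.1 CPM in control and at 15.1, 17.3 and 19.1 CPM in Sox10ko. Every Sox10ko culture was far below the controls, and Pole2 fell by 1.12 ± 0.13 on the log2 scale, or 2.17-fold (edgeR adjusted p = 0.00102). It lies at chr12:69201773-69228195 on the minus strand. Pole, the catalytic subunit of the same enzyme, fell from 108, 116 and 101 CPM to 70.1, 69.3 and 51.5 CPM (1.70-fold, edgeR adjusted p = 0.00603). The Pole2 to Pole ratio within a library was 0.324, 0.309 and 0.407 in control and 0.215, 0.249 and 0.371 in Sox10ko, and overlapped between groups.

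In polymerase delta, the enzyme of the lagging strand, subunits differed. Pold1, the catalytic subunit, was read at 119.7, 102 and 109.8 CPM in control and at 57.2, 63.9 and 67.0 CPM in Sox10ko. Its groups did not overlap, and it fell by 0.82 ± 0.11 on the log2 scale (1.76-fold, edgeR adjusted p = 0.00152). Pold3 fell 1.63-fold, from 68.4, 71.1 and 65.7 CPM to 38.1, 42.7 and 45.1 CPM (edgeR adjusted p = 0.00210). Pold2, the second subunit, had 55.4, 46.1 and 53.6 CPM in control and 50.3, 48.8 and 61.2 CPM in Sox10ko. These ranges overlapped, with a log2 fold change of 0.05 ± 0.13 (edgeR adjusted p = 0.806). Its sign turned to -0.05 without control replicate 2, -0.07 without Sox10ko replicate 3, -0.02 with chromosome medians removed and -0.10 with a GC offset.

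The RFC clamp loader opens the PCNA ring and places it on primed DNA. All 5 subunits had values below 0 and 3 passed as lower, with a median log2 fold change of -0.52. Rfc2 was read at 115, 99.1 and 114 CPM in control and at 58.0, 77.9 and 74.5 CPM in Sox10ko. No overlap was seen, and Rfc2 fell by 0.64 ± 0.13 on the log2 scale (1.56-fold, edgeR adjusted p = 0.0108). Rfc5 fell 1.48-fold (edgeR adjusted p = 0.0147). Rfc1, the large subunit, fell 1.28-fold (edgeR adjusted p = 0.0250), and lost its call without any 1 of control replicates 1, 2 and 3 and Sox10ko replicates 2 and 3 (edgeR adjusted p from 0.0542 to 0.0693). Rfc3 had the smallest difference, at 57.9, 47.3 and 57.3 CPM in control and 35.3, 49.5 and 43.5 CPM in Sox10ko. Its groups overlapped through Sox10ko replicate 2 (log2 fold change -0.34 ± 0.15, edgeR adjusted p = 0.125). Rfc4 had -0.52 (edgeR adjusted p = 0.135), with 25.4, 28.9 and 44.6 CPM in Sox10ko, and passed without Sox10ko replicate 3 (edgeR adjusted p = 0.0199).

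The sliding clamp PCNA, which tethers polymerases to DNA, had the highest level per kilobase of exon among the 53 genes. Pcna was read at 295, 266 and 325 CPM in control and at 169.5, 155 and 205 CPM in Sox10ko. There was no overlap, and Pcna fell by 0.74 ± 0.13 on the log2 scale (1.67-fold, edgeR adjusted p = 0.00606). The annotated copy Pcna-ps2 held 187 reads over the 6 libraries, beside 55075 for Pcna. Lig1, the ligase that seals lagging-strand fragments, fell from 158, 162 and 145 CPM to 99.0, 98.5 and 115 CPM (1.49-fold, edgeR adjusted p = 0.00601). Fen1, the flap nuclease of the same step, was the lowest member, at 6.37, 4.12 and 6.30 CPM in control and 3.39, 4.25 and 6.01 CPM in Sox10ko. Its groups overlapped (log2 fold change -0.30 ± 0.28, edgeR adjusted p = 0.461). Of its 2422 exonic bases, 1909 overlap Gm10143 on the opposite strand, so the level of Fen1 is uncertain.

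RPA, the single-strand binding complex, was divided like GINS and polymerase delta. Rpa3, the small subunit, was read at 35.6, 31.4 and 34.7 CPM in control and at 16.7, 21.0 and 21.0 CPM in Sox10ko. Both groups were tight and apart, and Rpa3 fell by 0.79 ± 0.13 on the log2 scale (1.73-fold, edgeR adjusted p = 0.00378). Rpa2 fell 1.36-fold, from 71.0, 64.1 and 67.0 CPM to 52.2, 45.3 and 51.5 CPM (edgeR adjusted p = 0.0136, and 0.0510 without control replicate 3). Rpa1, the large DNA-binding subunit, had 489, 478 and 522 CPM in control and 473, 453 and 601 CPM in Sox10ko. Its groups overlapped, with Sox10ko replicate 3 the highest of the 6, and its log2 fold change was 0.04 ± 0.13 (edgeR adjusted p = 0.856). The sign of this value turned to -0.01 without control replicate 2, -0.11 without Sox10ko replicate 3, -0.03 with chromosome medians removed and -0.00 without the filter on low counts.

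Pairs of subunits within these complexes were set against each other after their values had been seen, so no test is given. Their read ratios within a library do not depend on the scaling between libraries. Gins4 to Gins1 was 0.952, 0.853 and 0.816 in control and 1.67, 1.72 and 1.65 in Sox10ko. Pold2 to Pold1 was 0.463, 0.453 and 0.488 in control and 0.879, 0.763 and 0.914 in Sox10ko. Rpa1 to Rpa3 was 13.8, 15.2 and 15.0 in control and 28.2, 21.6 and 28.7 in Sox10ko. The mean ratio in Sox10ko was thus 1.78 to 1.92 times that in control for these 3 pairs, without overlap between groups. Each of these 3 pairs set a member with a value above 0 against one with a large fall. The ratios therefore restate those fold changes and are no separate support for them. Of 2 more pairs chosen after their values were seen, Uhrf1 to Pcna overlapped between groups. Mcm4 to Mcm7 was 0.856, 0.898 and 0.886 in control and 0.908, 0.999 and 1.52 in Sox10ko, also without overlap. For the 8 pairs listed in the design, among them Ccne2 to Ccne1, Rrm2 to Rrm1 and Chaf1b to Chaf1a, the ratios overlapped between groups. With 3 cultures against 3, an exact permutation test of such a ratio cannot go below p = 0.1.

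**Figure D3:**
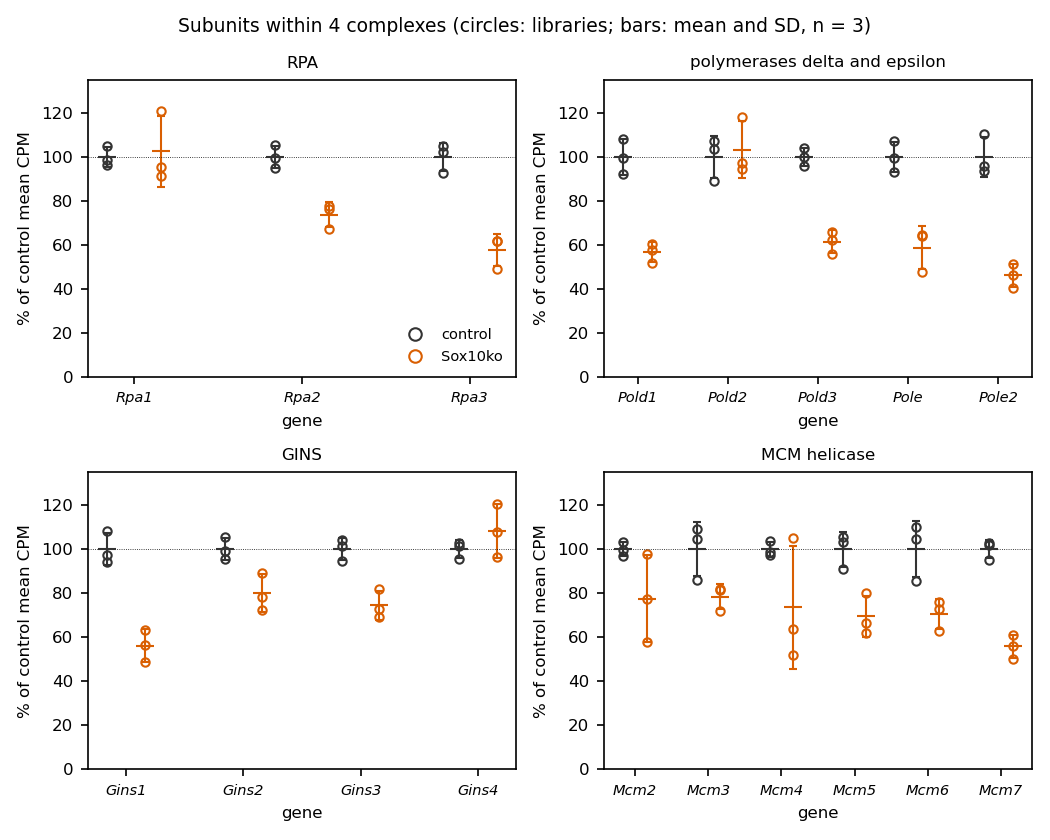
Level of each subunit in each library as a percentage of its control mean CPM (vertical axis) in 4 complexes, with circles for libraries and bars for mean and SD (n = 3). Gins4, Pold2 and Rpa1 stay near 100% in Sox10ko, at 108%, 103% and 103%, while Gins1, Pold1 and Rpa3 lie at 56.2%, 56.8% and 57.7%.

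Genes of nucleotide supply, which make the building blocks of DNA, had a median log2 fold change of -0.40. All 5 had values below 0, and 2 passed as lower. Rrm1, the large subunit of ribonucleotide reductase, was read at 619, 575 and 609 CPM in control and at 409, 448 and 401 CPM in Sox10ko. Every Sox10ko culture lay well below the lowest control, and Rrm1 fell by 0.52 ± 0.09 on the log2 scale (1.43-fold, edgeR adjusted p = 0.00595). Tyms, which makes thymidylate, also fell 1.43-fold (edgeR adjusted p = 0.0189, and 0.0691 without control replicate 3). Rrm2, the small subunit of the reductase, had a log2 fold change of -0.37 and did not pass (edgeR adjusted p = 0.0915). Tk1, the salvage kinase of thymidine, had the smallest difference, at 117, 88.5 and 92.7 CPM in control and 81.2, 99.6 and 91.8 CPM in Sox10ko. Its groups overlapped (log2 fold change -0.13 ± 0.14, edgeR adjusted p = 0.508). Dut, which removes dUTP, had -0.40 (edgeR adjusted p = 0.121, and 0.0405 without control replicate 2, its lowest control).

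The chromatin group has 3 genes that act at the fork. Uhrf1, which guides maintenance of DNA methylation behind the fork, had 362, 387 and 328 CPM in control and 176, 189 and 316 CPM in Sox10ko. The groups did not overlap, yet its log2 fold change of -0.66 ± 0.22 missed the threshold (edgeR adjusted p = 0.0601). Without Sox10ko replicate 3 it was -0.98 and passed (edgeR adjusted p = 0.00255). Chaf1b, a subunit of the histone chaperone CAF-1, had 48.7, 48.4 and 55.4 CPM in control and 40.5, 39.3 and 39.4 CPM in Sox10ko. It fell by 0.35 ± 0.10 on the log2 scale, without overlap (edgeR adjusted p = 0.0272). Chaf1a, its partner, fell by 0.48 (edgeR adjusted p = 0.0456), and 4648 of its 8854 exonic bases overlap Ubxn6 on the opposite strand. Neither call was firm: without control replicate 1, 2 or 3 or Sox10ko replicate 1 or 2, Chaf1a had an edgeR adjusted p from 0.0741 to 0.110. Chaf1b had one from 0.0505 to 0.0999 without control replicate 1 or 3 or Sox10ko replicate 2 or 3.

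Of the regulators of S-phase entry, the E cyclins switch on Cdk2 and E2f1 drives transcription of the replication genes. Ccne2 was read at 49.9, 54.2 and 53.8 CPM in control and at 35.3, 36.7 and 33.5 CPM in Sox10ko. Without overlap, Ccne2 fell by 0.58 ± 0.09 on the log2 scale (edgeR adjusted p = 0.00348). Ccne1 had 41.9, 41.1 and 40.3 CPM in control and 29.3, 41.8 and 33.5 CPM in Sox10ko. Sox10ko replicate 2 lay among the controls, and the log2 fold change was -0.24 ± 0.14 (edgeR adjusted p = 0.239, and 0.0423 without that culture). E2f1 fell from 113, 114 and 127 CPM to 85.3, 93.0 and 84.2 CPM (1.35-fold, edgeR adjusted p = 0.0128, and 0.0559 without control replicate 3).

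**Figure D4:**
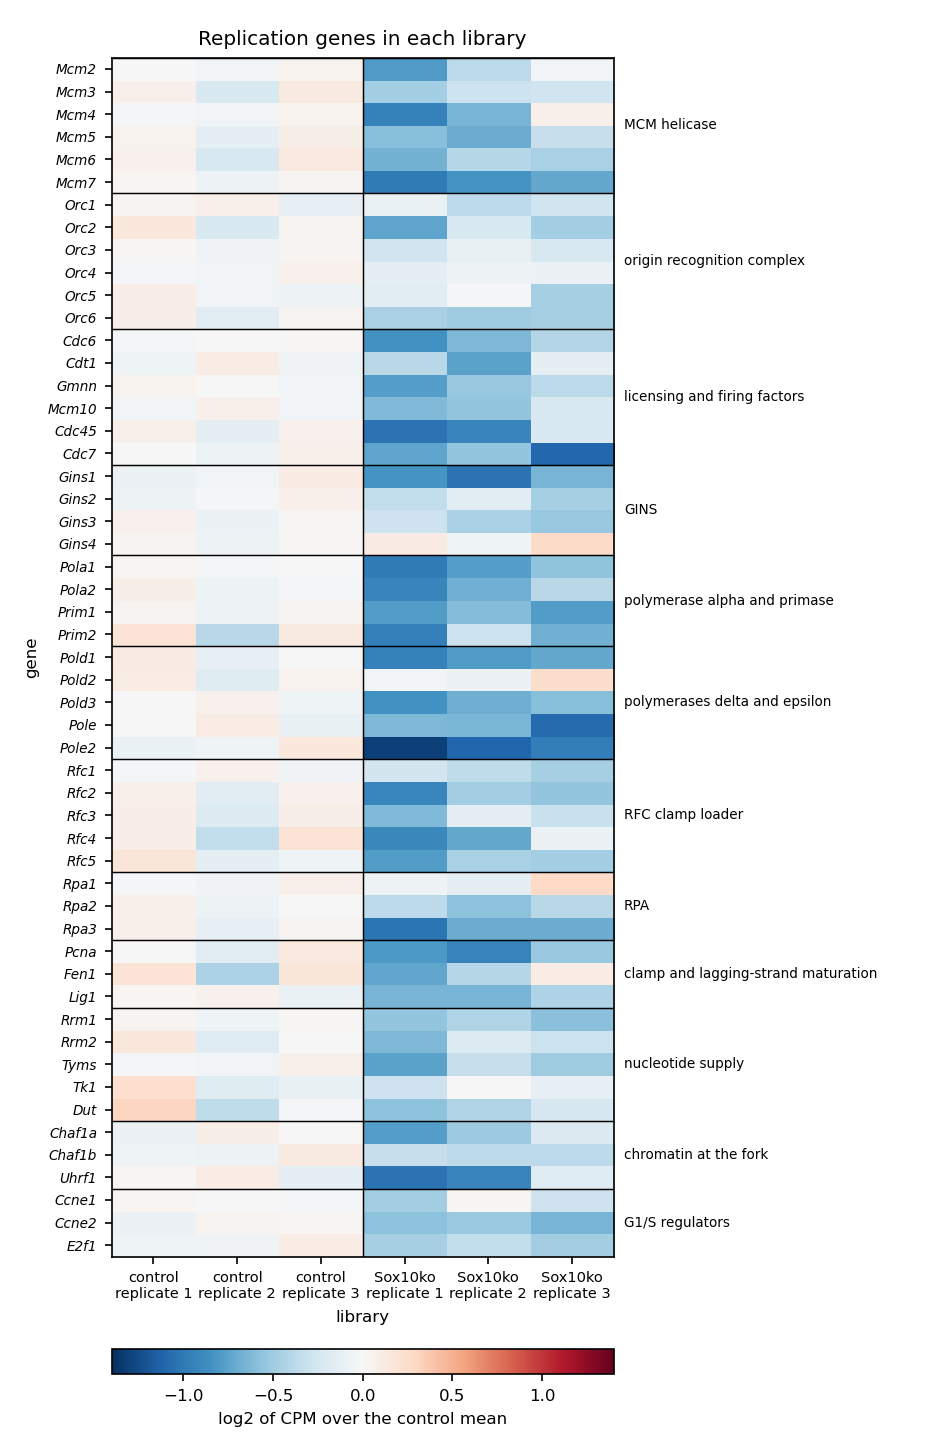
Log2 of CPM over the control mean (colour) for each of the 53 replication genes (rows, by role) in each of the 6 libraries (columns). Values below the control mean fill most of the 3 Sox10ko columns. The deepest column is Sox10ko replicate 1, where the median member stood at 63.8% of the control mean.

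Across complexes, the median log2 fold change ran from -0.76 for polymerases delta and epsilon and -0.68 for polymerase alpha with primase to -0.22 for the origin recognition complex. The other 9 groups lay between -0.58 and -0.37. Spread within a group differed as well. It was least in polymerase alpha with primase (SD 0.07) and largest in polymerases delta and epsilon (0.43), RPA (0.42) and GINS (0.39), the 3 groups that each hold a member with a value above 0. These differences between groups of 3 to 6 genes were not tested.

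The 3 Sox10ko cultures were not alike in depth of the difference. Relative to the control mean, the median member stood at 63.8% in Sox10ko replicate 1, 71.4% in replicate 2 and 75.1% in replicate 3. Replicate 1, which also had the fewest counted reads (32328618), held the lowest Sox10ko value for 31 of the 53 genes, replicate 2 for 12 and replicate 3 for 10. The part of depth in this was not tested. Below the lowest control library lay 50 of 53 genes in replicate 1, 45 in replicate 2 and 44 in replicate 3. Neither these counts nor those of the lowest Sox10ko culture were made over all tested genes, so both stand without a background. The median of each of the 12 groups was below that of every control library in all 3 cultures. The same held for the medians of other replication genes (68.1%, 71.9% and 75.2% in Sox10ko) and mitosis genes (60.6%, 79.8% and 71.9%). Over 15053 tested genes with reads in every library, the Sox10ko medians were 100.4%, 100.1% and 99.9%.

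Single genes differed between the Sox10ko cultures to different degrees. Sox10ko replicate 3 had over 1.5 times the level of replicate 1 in 6 members: Mcm4 (2.03 times), Uhrf1 (1.79), Fen1 (1.77), Cdc45 (1.76), Rfc4 (1.76) and Mcm2 (1.69). In 14 members replicate 3 was lower than replicate 1, down to 0.74 times for Pole, and the median was 1.20 times. The members' median SD on the log2 CPM scale was 0.090 among controls and 0.192 among Sox10ko cultures. For genes averaging 5 CPM or more it was 0.120 and 0.178, so Sox10ko cultures varied more there too.

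**Figure D5:**
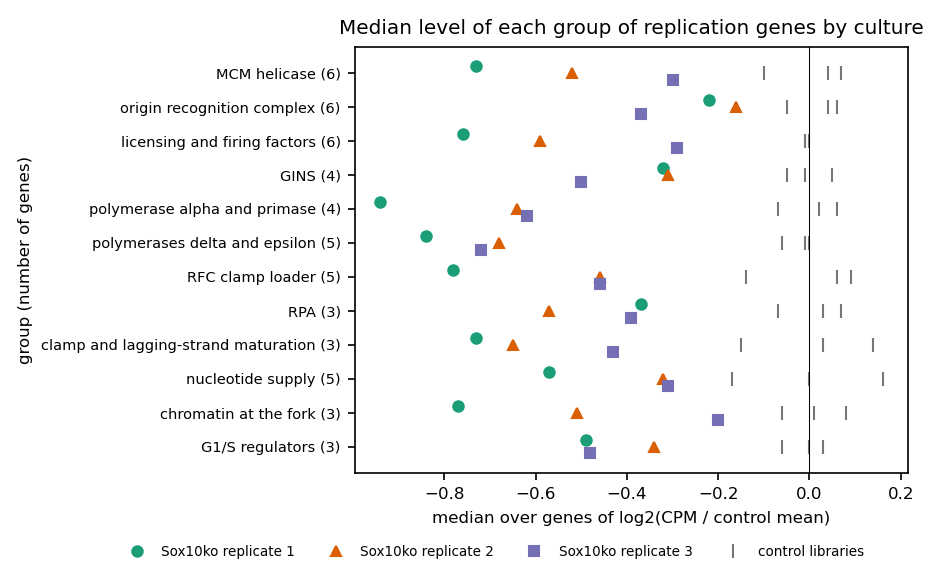
Median over the genes of each group of log2 CPM over the control mean (horizontal axis) for the 12 groups of replication genes (vertical axis), with 1 symbol for each Sox10ko culture and grey ticks for the 3 control libraries. All Sox10ko symbols lie left of the control ticks, from -0.94 for polymerase alpha with primase in replicate 1 to -0.16 for the origin recognition complex in replicate 2.

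Levels between genes were compared as CPM per kilobase of exon in control. Pcna was highest at 123, followed by Rpa1 at 89.0, Uhrf1 at 84.3 and Mcm4 at 80.0. Fen1 at 2.31 and Orc1 at 3.30 were lowest. The 6 MCM subunits, which form a ring with 1 copy of each, ran from 32.2 (Mcm5) to 80.0 (Mcm4), a range of 2.48 times in control and 2.63 times in Sox10ko. The 5 RFC subunits spanned 2.06 times in control and 1.93 times in Sox10ko. In RPA the span was 3.95 times in control and 5.50 times in Sox10ko, with Rpa1 the highest in both. Annotated exon length is longer than most single transcripts, and these levels carry that error.

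Genes outside the 53 that act in the same pathway were described by the same counts. Of 44 other replication genes, 25 (56.8%) were lower, 1 was higher and 18 did not pass, with a median log2 fold change of -0.54. Among all tested genes, 14.7% passed as lower and 17.3% as higher. The lowest adjusted p was that of Nasp, a histone chaperone (142, 136 and 139 CPM against 82.3, 81.0 and 84.5 CPM, edgeR adjusted p = 0.000713). Dscc1, part of an alternative clamp loader, fell by 1.36 ± 0.15 on the log2 scale, from 27.4, 26.0 and 27.2 CPM to 10.4, 8.78 and 12.3 CPM (edgeR adjusted p = 0.000805). Clspn, a fork protein of the checkpoint, fell by 0.81 (edgeR adjusted p = 0.00103) and Esco2, which links sister chromatids, by 0.80 (edgeR adjusted p = 0.00202). Dnmt1, the maintenance methyltransferase that Uhrf1 recruits, fell by 0.76 (edgeR adjusted p = 0.00317). Slbp, the binding protein of histone mRNA, had -0.33 and did not pass (edgeR adjusted p = 0.148). Samhd1, which degrades deoxynucleotides, was the exception, at 53.1, 53.9 and 52.7 CPM against 63.3, 85.9 and 66.2 CPM. It rose by 0.43 ± 0.13 (edgeR adjusted p = 0.0411), and lost its call without control replicate 1, 2 or 3 or Sox10ko replicate 2 (edgeR adjusted p from 0.0790 to 0.141).

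Upstream, genes of E2F, RB and G1/S control were mixed. Of 35 listed, 32 were tested, 17 (53.1%) were lower and 3 higher, with a median of -0.35. Over all tested genes, 14.7% passed as lower and 17.3% as higher. The activator E2f2 fell by 0.91 ± 0.12 (edgeR adjusted p = 0.00199), and Cdc25a, the phosphatase that activates Cdk2, by 0.88 ± 0.10 (edgeR adjusted p = 0.00101). Cdk2 itself, the partner of the E cyclins, fell by 0.64 ± 0.10 (edgeR adjusted p = 0.00284). Ccna2, the S-phase cyclin, fell by 0.55 (edgeR adjusted p = 0.0267), but not past the threshold without control replicate 1 (0.0768) or 2 (0.0522). The genes that rose were Cdkn1a, Ccnd2 and Rbl2. Cdkn1a, the Cdk inhibitor p21, was at 123, 186 and 127 CPM in control and at 299, 314 and 292 CPM in Sox10ko (log2 fold change 1.05 ± 0.17, edgeR adjusted p = 0.00368). Ccnd2, a D-type cyclin, was at 121, 215 and 137 CPM in control and at 582, 758 and 719 CPM in Sox10ko (2.12 ± 0.23, edgeR adjusted p = 0.000770). Rbl2, the pocket protein p130, rose by 0.60 (edgeR adjusted p = 0.0229), but did not pass without control replicate 1 or 3 or Sox10ko replicate 1, where its adjusted p reached 0.0954. Ccnd1 had -0.13 (edgeR adjusted p = 0.637) and turned to 0.03 without Sox10ko replicate 1. Cdkn1c, Cdkn2a and Cdkn2b did not pass the filter on low counts, and Cdkn2a had 0 reads in all 6 libraries.

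Mitosis genes had nearly the counts of the replication genes: 19 of 35 lower (54.3%), 1 higher, and a median of -0.48. The shares over all tested genes were 14.7% lower and 17.3% higher. Kif11, a spindle motor, fell by 0.95 ± 0.13 (edgeR adjusted p = 0.00171), Espl1, which encodes separase, by 0.80 (0.00240), Prc1, a midzone protein, by 0.77 (0.00879) and Ttk, a checkpoint kinase, by 0.65 (0.00434). Mki67, the common proliferation marker, fell from 1424, 1225 and 1207 CPM to 652, 907 and 773 CPM (edgeR adjusted p = 0.00902). Anln, an actin-binding protein of the cleavage furrow, rose by 0.56 ± 0.11 (edgeR adjusted p = 0.0100, and 0.0515 without control replicate 3). The difference between the lists was not tested.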

How the data were processed

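RNA was sequenced from 3 control and 3 Sox10ko cultures, grouped by their titles. Per the labels' protocols, libraries were made from total RNA with a stranded mRNA kit. The authors deposited raw read counts per Ensembl gene ID, 1 table per library. The submitters' processing notes name HTSeq, STAR 2.6.0c and DESeq2 and the build mm10 (GRCm38). Which annotation release, strand setting or filter was used is not given in the sources used here. Longer genes collect more counts, and overlapping genes or near-identical copies can lose or gain reads.

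The members, role groups, pathway lists and markers were chosen with earlier results of these data known. Symbols, positions and exon lengths came from GENCODE M21 (GRCm38), and symbols matched 54042 of 54109 IDs. In edgeR 4.0.16 (R 4.3.3), low counts were removed by filterByExpr and libraries scaled by TMM. The two-sided quasi-likelihood F test was run on all 6 libraries without covariates. Benjamini-Hochberg adjustment covered 15427 genes, with a threshold of 0.05. The step was tested on simulated data. Members had at least 1189 reads over the 6 libraries. No 2 replicates agreed within sampling noise (chi-square per degree of freedom from 27.7 to 91.1).

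All members could be named. Full values went to the largest and smallest change of each role group and the 5 largest falls. From each pathway list, the 4 genes of lowest adjusted p, at most 2 that went against its direction, and Cdkn1a, Cdkn2a, Ccnd1, Ccna2, Mki67, Slbp and Dnmt1 were named. Other members with values, Rbl2, and the ratios of Gins4, Pold2 and Rpa1 were added after their values were seen. The 15 alternatives were DESeq2 size factors, library size alone, no low-count filter, a minimum mean of 5 CPM, limma-voom (limma 3.58.1), DESeq2 1.42.0, a replicate block, chromosome medians removed, a GC offset (lowess span 0.3) and leaving out each library. Promoter windows came from RefSeq on GRCm38.p6, and protein sequences were not used here.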

Additional observations from a re-analysis of the deposited data

How the results depend on the processing

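The number of replication genes called lower was 30 in the main analysis and 31 with DESeq2 size factors, 26 with library size alone, 33 without the low-count filter, 28 with a mean of at least 5 CPM, 35 with DESeq2, 32 with limma-voom, 39 with chromosome medians removed and 34 with a GC offset. Leaving out 1 library gave 20 (without control replicate 3) to 33. None was called higher under any of these. Of the 30, 19 kept the call under all 15 alternatives and 11 lost it under at least 1. Of the other 23, 12 gained it under at least 1 and 11 never did. Median log2 fold changes of the 53 ran from -0.57 to -0.42. No scaling moved the median of all genes by more than 0.06. Genes called overall numbered 4939, and 2869 to 4681 when 1 library was left out. With 1 library left out, the median of the E2F, RB and G1/S list ran from -0.46 (without Sox10ko replicate 2) to -0.31 (without Sox10ko replicate 1), and it was -0.29 with library size alone. Among the genes named with full values, those of 3 changed sign. Pold2 came to -0.02 with chromosome medians removed, -0.10 with a GC offset, -0.05 without control replicate 2 and -0.07 without Sox10ko replicate 3. Rpa1 came to -0.00 without the low-count filter, -0.03 with chromosome medians removed, -0.01 without control replicate 2 and -0.11 without Sox10ko replicate 3. Ccnd1 came to 0.03 without Sox10ko replicate 1. Over the fits that left out 1 library, Pold2 reached 0.10 and Rpa1 0.10 at the upper end, and Ccnd1 -0.30 at the lower end. The cause was not tested.

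With the replicate block, 23 replication genes and 3537 genes overall were called. Same-numbered cultures did not deviate together (r across 10236 genes of -0.214, -0.100 and 0.074). Differently numbered cultures had r from -0.120 to 0.192. These values gave no sign of pairing by number. They cannot exclude it, since deviations from a mean of 3 cultures depend on each other. The block ended the calls of Mcm6, Mcm10, Rfc1, Rfc5, Chaf1a, Chaf1b and E2f1.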
